A study of Solanum lycopersicum with 6 samples.

Results

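Aquaporins are membrane channels that let water, and in some subfamilies small solutes, cross cell membranes. They were studied in the fruit wall (pericarp) of tomato, cultivar Ailsa Craig, by RNA sequencing. The deposited gene table has 36224 rows, and the 37 rows whose description holds the word aquaporin were taken as members. Fruit from transgenic SlJMJ6 overexpressors (JMJ6-OE), which carry extra expression of a histone demethylase, were compared with wild-type fruit (WT), all harvested 37 days after anthesis from greenhouse plants, with 3 libraries per genotype. The labels name neither the promoter of the transgene nor the number of transgenic lines, and whether each replicate was a plant of its own is not stated. The p-values therefore measure the spread between these libraries.

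Plant aquaporins fall into several subfamilies. Plasma membrane intrinsic proteins (PIPs) carry water through the cell surface, and tonoplast intrinsic proteins (TIPs) through the vacuole membrane, the largest store of water in a fruit cell. PIPs are further divided into PIP1 and PIP2 types, and in maize PIP1 proteins reach the cell surface together with PIP2 partners. Nodulin 26-like intrinsic proteins (NIPs) also pass boric acid, silicic acid and other small solutes, and small basic intrinsic proteins (SIPs) were placed in the endoplasmic reticulum in Arabidopsis.

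By symbol and description, 13 members were PIPs, 8 TIPs, 9 NIPs and 4 SIPs. For another 3 members the symbol named a PIP and the description a TIP, and these were kept apart. Symbols are not unique in the table (PIP2-1 stands for 7 of the members), so each gene is given with its identifier. None of the member identifiers (0 of 37) appears in the RefSeq gene table of assembly SLM_r2.1, so that no position is given. A further 10 rows carry an aquaporin symbol or are described as intrinsic proteins without the word aquaporin. They are outside the rule and are described separately because 1 of them was the most abundant of all these rows by mean FPKM.

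The libraries held 28539410 to 36487547 counts. In the JMJ6-OE libraries the ripening genes PG2A (polygalacturonase), PSY1 (phytoene synthase) and RIN (a MADS-box regulator) stood at 3869 to 5102, 3622 to 6469 and 293 to 582 CPM, against 36.4 to 48.8, 289 to 508 and 22.4 to 61.1 CPM in the WT libraries. CPM here are counts divided by library sizes that were scaled by the TMM method. At a single fruit age, an advanced ripening stage and an effect of the demethylase on a gene cannot be told apart, and in bulk tissue fewer cells of a type and less RNA per cell cannot be told apart. The row taken as JMJ6 (Solyc06g008490.3) is an uncertain match, with the symbol JMJ703 and described as a putative lysine-specific demethylase JMJ16. It had 31.5, 37.4 and 41.3 CPM in JMJ6-OE and 27.0, 23.5 and 25.5 CPM in WT, 1.45-fold higher. With the match uncertain, the strength of the overexpression cannot be read from this row.

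In JMJ6-OE fruit 5 aquaporin genes fell and 1 rose. Of the 37 members, 25 passed the filter on low counts, and 19 of these did not pass an adjusted p of 0.05. The test was edgeR's quasi-likelihood test, Benjamini-Hochberg adjusted over all 20143 tested genes. Of all tested genes, 16.8% fell and 17.5% rose, so the 5 that fell (20.0% of those tested) are close to the background share, while the 1 that rose (4.0%) is below it. Without JMJ6-OE replicate 2 or without WT replicate 2 only 2 members fell, and without JMJ6-OE replicate 3 only 3. The median log2 fold change was -0.14 over the 25 tested members and -0.01 over all tested genes. The libraries of the genotypes did not overlap for 11 of the 25 members (44.0%), against 51.4% of all tested genes. Of the 25 tested members, 18 had all 6 libraries above the filter's limit of 0.292 CPM. Solyc10g054790.2 passed only through the JMJ6-OE libraries and Solyc05g055990.3 only through the WT libraries, so a difference in these 2 was a condition of their being tested.

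**Figure D1:**
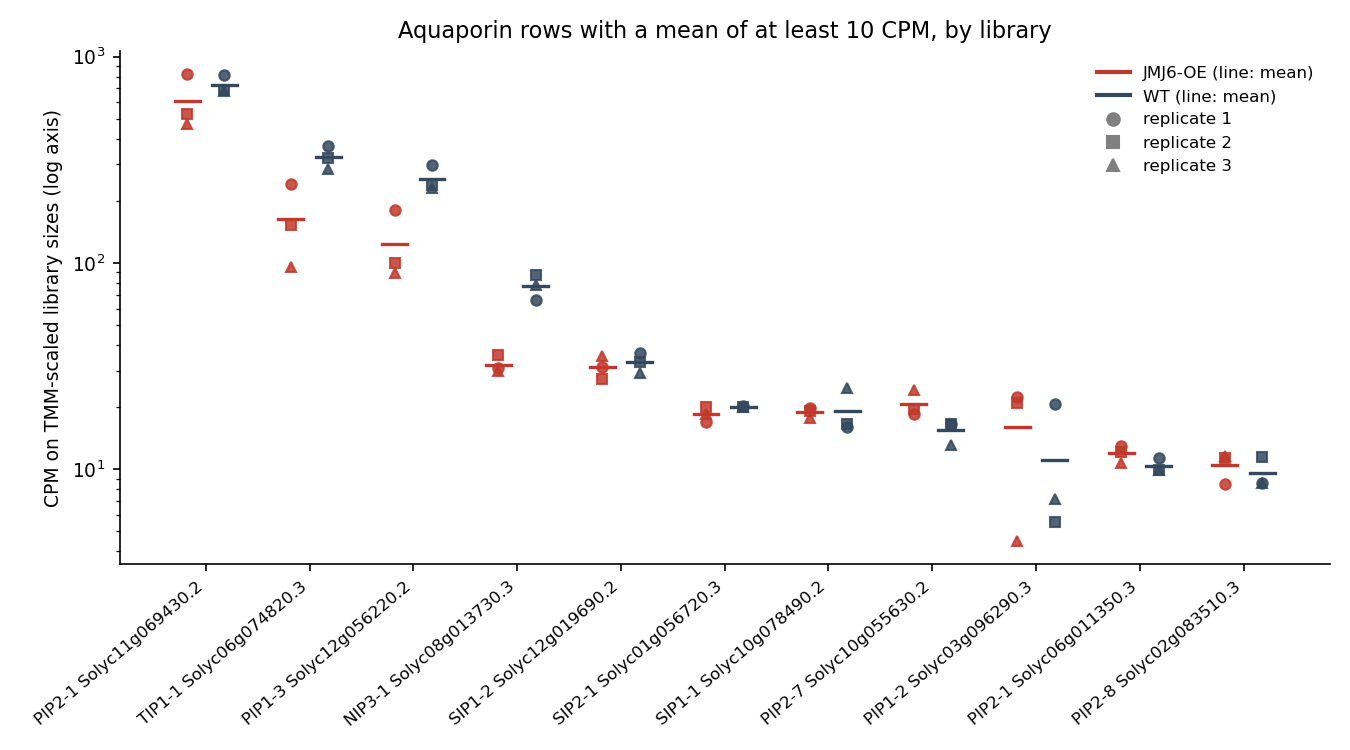
Each point is 1 library's transcript level in CPM on a log axis for the 11 members with a mean of at least 10 CPM, JMJ6-OE in red and WT in dark blue, with marker shapes for replicates and a line at the group mean. NIP3-1, PIP1-3 and TIP1-1 show no overlap between genotypes, with all JMJ6-OE libraries below WT, PIP2-7 Solyc10g055630.2 shows none in the other direction, and the 3 SIP genes overlap.

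Levels of different genes were compared in the authors' FPKM, which divides counts by transcript length. The order of the 3 most abundant members was the same in both genotypes. PIP2-1 Solyc11g069430.2 averaged 413 ± 155 FPKM in JMJ6-OE and 554 ± 42.0 FPKM in WT (mean ± SD, n = 3 each). TIP1-1 Solyc06g074820.3 averaged 151 ± 77.3 FPKM in JMJ6-OE and 334 ± 36.4 FPKM in WT. PIP1-3 Solyc12g056220.2 averaged 86.0 ± 40.7 FPKM in JMJ6-OE and 199 ± 23.6 FPKM in WT. In JMJ6-OE the spreads of TIP1-1 and PIP1-3 overlapped, although TIP1-1 was higher than PIP1-3 within each library. In WT the 3 genes were apart by more than their spread. Every other member averaged at most 21.1 FPKM in JMJ6-OE and 30.7 FPKM in WT.

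Among the PIPs, the water channels of the cell surface, 3 of the 11 tested genes fell (27.3%), none rose and 8 did not pass. Over all tested genes 16.8% fell and 17.5% rose, and 1 of the 3 PIP falls was tested only through the WT libraries. The most abundant, PIP2-1 Solyc11g069430.2, had 822, 527 and 471 CPM in the JMJ6-OE libraries, against 811, 687 and 680 CPM in the WT libraries. JMJ6-OE replicate 1 was as high as the highest WT library, while replicates 2 and 3 were below all WT libraries. The log2 fold change was -0.26 ± 0.22 (SE) with an edgeR adjusted p of 0.39. Without JMJ6-OE replicate 1 it was -0.54, with an adjusted p of 0.017.

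PIP1-3 Solyc12g056220.2, described as like pTOM75, had 181, 100 and 89.3 CPM in JMJ6-OE and 298, 238 and 231 CPM in WT. All JMJ6-OE libraries lay below all WT libraries, with replicate 1 again the nearest to WT. The gene fell by 1.05 ± 0.28 on the log2 scale, or 2.07-fold (edgeR adjusted p = 0.029). When each library was left out in turn, the call held only without JMJ6-OE replicate 1 (log2 fold change -1.43, adjusted p = 5.9e-04). In the other 5 fits the adjusted p was 0.054 to 0.096. A second row described as pTOM75, Solyc08g008050.3, was scarce, with 0.403, 0.505 and 0.148 CPM in JMJ6-OE and 1.08, 0.802 and 0.747 CPM in WT. It did not overlap between genotypes and was not called (log2 fold change -1.28 ± 0.48, edgeR adjusted p = 0.075).

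PIP2-7 Solyc01g111660.3 had 4.22, 4.07 and 4.78 CPM in JMJ6-OE and 5.61, 7.54 and 6.69 CPM in WT, again with all JMJ6-OE libraries lowest. It fell by 0.60 ± 0.17 (edgeR adjusted p = 0.033). With each library left out in turn, this passed only without WT replicate 1 (adjusted p = 0.027, and up to 0.11 in the other fits), and with the replicate block it did not pass (0.064). The other gene with this symbol, PIP2-7 Solyc10g055630.2, went the opposite way without passing the test. It had 18.5, 19.6 and 24.1 CPM in JMJ6-OE and 16.6, 16.6 and 13.1 CPM in WT, with a log2 fold change of 0.42 ± 0.15 and an edgeR adjusted p of 0.061. DESeq2 gave this gene an adjusted p of 0.049, and edgeR an adjusted p of 0.040 without JMJ6-OE replicate 1.

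PIP2-1 Solyc05g055990.3, described as PIP2-4, was close to silent in JMJ6-OE. It had 2, 0 and 0 counts in the JMJ6-OE libraries and 19, 20 and 17 counts in the WT libraries. On the scaled library sizes this is a 24.0-fold lower level, with an exact 95% interval of 6.34 to 203 that covers counting error only. The fall was called with all libraries (edgeR adjusted p = 0.0078) and whichever of the 6 libraries was left out (adjusted p up to 0.034). The row passed the filter only through the WT libraries, so a difference was a condition of its being tested. These calls and the interval are therefore no separate support for the fall. The level of the row was low in WT too, at 0.593 ± 0.101 FPKM.

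The remaining tested PIPs were not called. PIP1-2 Solyc03g096290.3 varied more within genotypes than between them, with 22.5, 20.9 and 4.49 CPM in JMJ6-OE and 20.7, 5.56 and 7.16 CPM in WT. PIP2-1 Solyc06g011350.3 had 13.0, 12.1 and 10.7 CPM in JMJ6-OE and 11.3, 9.92 and 9.89 CPM in WT, and its log2 fold change was 0.20 ± 0.13. PIP2-8 Solyc02g083510.3 had 8.46, 11.4 and 11.6 CPM in JMJ6-OE and 8.59, 11.5 and 8.55 CPM in WT (0.14 ± 0.19). None of these 3 separated the genotypes.

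Rows with nearly consecutive locus numbers and the same symbol PIP2-1 may share reads, and their separate values are uncertain. Solyc09g007760.3 had 6.14, 5.32 and 2.63 CPM in JMJ6-OE and 3.42, 2.25 and 2.75 CPM in WT (log2 fold change 0.75 ± 0.34, edgeR adjusted p = 0.13, and 1.03 with an adjusted p of 0.027 without JMJ6-OE replicate 3). Solyc09g007770.2 had 4.46, 8.89 and 5.23 CPM in JMJ6-OE and 4.13, 3.66 and 5.12 CPM in WT (0.53 ± 0.29, edgeR adjusted p = 0.19). The row between them, Solyc09g007765.1, had at most 3 counts in any library and was not tested, as was Solyc10g084120.2 with at most 2.

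**Figure D2:**
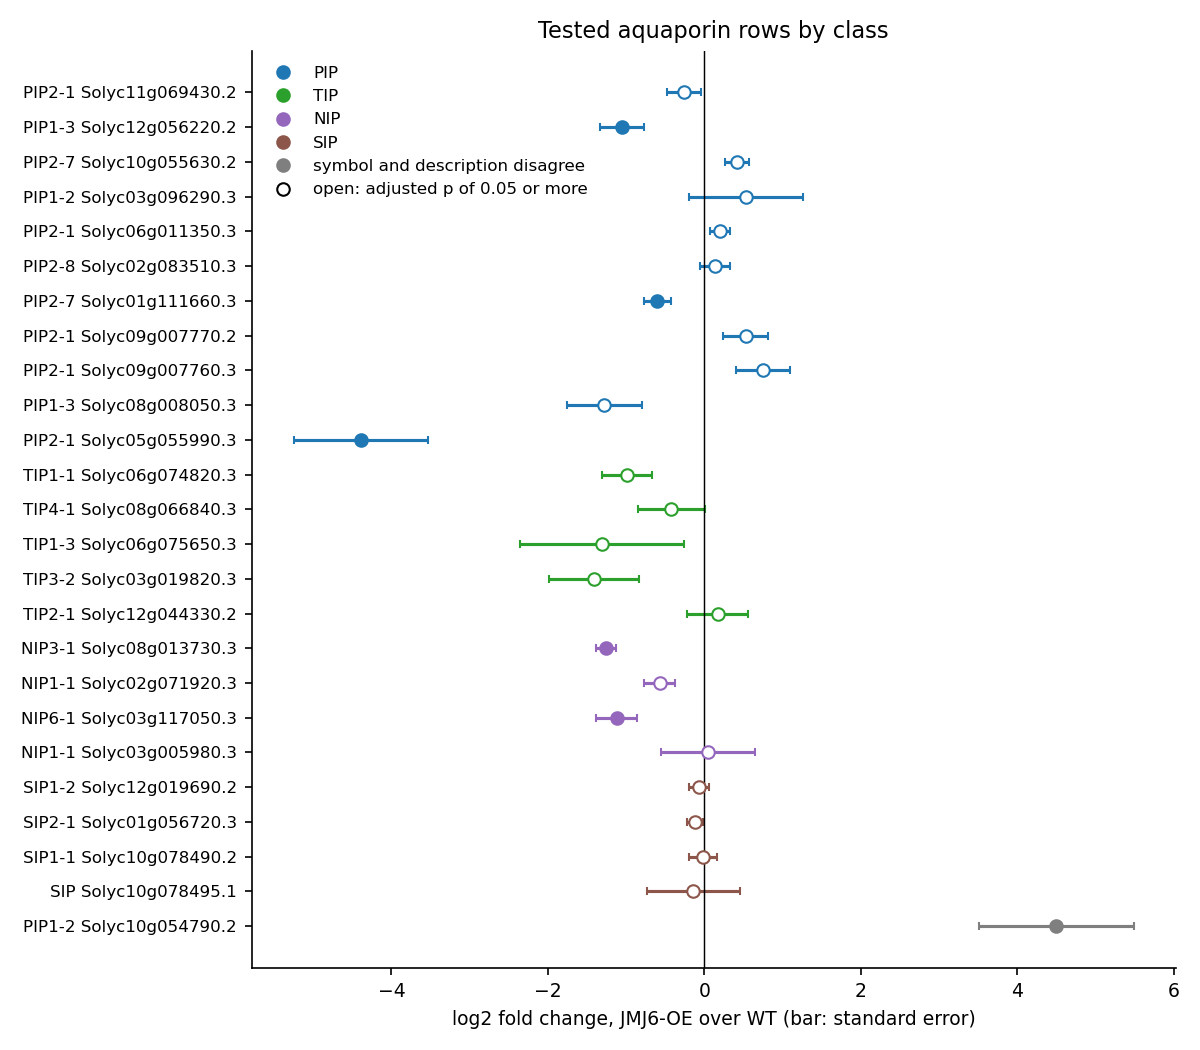
Each row is 1 of the 25 tested members, ordered by class and level, with its log2 fold change of JMJ6-OE over WT on the horizontal axis and the standard error as a bar. Filled points passed an adjusted p of 0.05 by edgeR: PIP1-3, PIP2-7 Solyc01g111660.3, PIP2-1 Solyc05g055990.3, NIP3-1 and NIP6-1 to the left of 0, and Solyc10g054790.2 to the right.

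None of the 5 tested TIPs, the channels of the vacuole membrane, was called by edgeR, although TIP1-1 and TIP3-2 did not overlap between genotypes. TIP1-1 Solyc06g074820.3 belongs to the type that is abundant in vacuoles of growing tissue in Arabidopsis, and it made up 97.4 ± 0.655% of the summed TIP FPKM in JMJ6-OE and 98.1 ± 0.174% in WT. It had 242, 152 and 95.5 CPM in JMJ6-OE and 367, 321 and 285 CPM in WT. Every JMJ6-OE library was below every WT library, but the JMJ6-OE libraries differed among themselves by more than 2-fold. The log2 fold change was -0.99 ± 0.32, just outside the threshold (edgeR adjusted p = 0.056). DESeq2 (adjusted p = 0.0028), limma-voom (0.034), the replicate block (0.014) and the fit without JMJ6-OE replicate 1 (-1.38, adjusted p = 0.0048) each called it. Leaving out any other library did not, with adjusted p from 0.061 to 0.15.

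The other TIPs were scarce. TIP4-1 Solyc08g066840.3 had 3.22, 2.11 and 1.04 CPM in JMJ6-OE and 2.40, 3.88 and 2.24 CPM in WT. TIP2-1 Solyc12g044330.2 had 0.593 to 1.19 CPM in JMJ6-OE and 0.644 to 0.852 CPM in WT, and TIP1-3 Solyc06g075650.3 had 0 to 0.981 CPM in JMJ6-OE and 0.551 to 2.50 CPM in WT. These 3 overlapped between genotypes. TIP3-type channels belong to the storage vacuoles of seeds in Arabidopsis. TIP3-2 Solyc03g019820.3 had 0.744, 0.178 and 0.519 CPM in JMJ6-OE and 1.96, 1.13 and 0.772 CPM in WT, without overlap and not called (log2 fold change -1.41 ± 0.58, edgeR adjusted p = 0.097). The second TIP3-2 row, Solyc06g072130.3, had 3 counts in JMJ6-OE replicate 2 and 0 in the other libraries.

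Over a list of 37 rows described as seed storage proteins or oleosins, 18 rows had 0 counts in every library. Their summed level was 34.8 to 73.7 CPM in JMJ6-OE and 10.6 to 14.9 CPM in WT, of which an oleosin 1-like row (Solyc06g060840.1) gave 24.8 to 62.0 CPM in JMJ6-OE and 4.13 to 7.42 CPM in WT. Of the 6 tested rows 2 rose and none fell, against 17.5% higher and 16.8% lower over all tested genes. Among the rows named TIP3, TIP3-2 Solyc03g019820.3 was lower without passing the test, and Solyc06g072130.3 had counts in JMJ6-OE replicate 2 only. Solyc10g054790.2, described as TIP3-1 with a PIP symbol, rose, but its class is uncertain and it was tested only through the JMJ6-OE libraries. Solyc10g054820.2, with the same clash of labels, was not tested. Solyc10g054810.2, with the symbol TIP3-2 but described as an X intrinsic protein, had 0 counts in all libraries. The part of seed material in these values was not tested. Solyc10g083880.2, a second TIP1-1 row, had 19 counts in WT replicate 1 and at most 8 elsewhere, and TIP5-1 Solyc03g093230.3, whose Arabidopsis counterpart is a pollen channel, had 0 in all libraries.

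Of the 4 tested NIPs 2 fell and none rose. NIP3-1 Solyc08g013730.3 is described as like NIP5-1, the boric acid channel of Arabidopsis roots. It had 30.8, 35.7 and 29.9 CPM in JMJ6-OE and 65.9, 87.7 and 78.1 CPM in WT. The genotypes were far apart and the JMJ6-OE libraries close together. It fell 2.40-fold (log2 fold change -1.26 ± 0.13, edgeR adjusted p = 6.5e-04), and the call held whichever library was left out (adjusted p up to 0.0036).

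NIP6-1 Solyc03g117050.3, a boric acid channel of shoots in Arabidopsis, had 1.02, 1.07 and 1.04 CPM in JMJ6-OE and 2.33, 2.68 and 1.83 CPM in WT. It fell 2.18-fold (-1.12 ± 0.26, edgeR adjusted p = 0.015), a call lost without WT replicate 2 (adjusted p = 0.058) or JMJ6-OE replicate 2 (0.052). NIP1-1 Solyc02g071920.3 had 4.37, 5.53 and 4.89 CPM in JMJ6-OE and 8.52, 7.74 and 5.72 CPM in WT, also without overlap. With a log2 fold change of -0.57 ± 0.20 it missed the threshold (edgeR adjusted p = 0.060), which it passed with upper-quartile scaling (0.044), with DESeq2 (0.044) and without WT replicate 3 (0.028).

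The fourth tested NIP, NIP1-1 Solyc03g005980.3, had 0.186 to 0.624 CPM in JMJ6-OE and 0.203 to 0.526 CPM in WT. Of the other 5 NIPs, Solyc05g008080.2 had 3 to 7 counts per library in JMJ6-OE and 3 to 5 in WT, and NIP4-2 Solyc02g091420.3 had 4 counts in JMJ6-OE replicate 3 and 1 in WT replicate 2. The rows NIP7-1 Solyc01g079890.3, NIP4-2 Solyc02g063310.2 and NIP1-1 Solyc02g071910.1 had 0 counts in all libraries. A count of 0 allows up to 3 counts, or 0.0822 to 0.105 CPM of a library's total.

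Boron export by BOR transporters works beside NIP channels in Arabidopsis. Of 6 rows described as boron transporters 3 were tested, and 2 of these fell while none rose. BOR1 Solyc01g057770.3 had 24.5, 19.4 and 18.1 CPM in JMJ6-OE and 35.2, 48.5 and 46.0 CPM in WT (log2 fold change -1.07 ± 0.16, edgeR adjusted p = 0.0032). BOR2 Solyc06g071500.3 had 107, 130 and 145 CPM in JMJ6-OE and 198, 222 and 195 CPM in WT (-0.69 ± 0.13, edgeR adjusted p = 0.0063). Both calls held whichever library was left out, and both genes were lower in every JMJ6-OE library, as were NIP3-1 and NIP6-1. The same was true of NIP1-1 Solyc02g071920.3, which was not called. Over all tested genes 16.8% fell, and 51.4% did not overlap between genotypes in either direction, so such a separation is common. A link between these genes was not tested.

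All 4 SIPs were tested and none was called by any fit. SIP1-2 Solyc12g019690.2 had 31.3, 27.5 and 35.2 CPM in JMJ6-OE and 36.4, 33.1 and 29.3 CPM in WT (log2 fold change -0.07 ± 0.13, edgeR adjusted p = 0.69). SIP2-1 Solyc01g056720.3 had 16.9, 20.1 and 18.5 CPM in JMJ6-OE and 20.3, 20.1 and 20.0 CPM in WT (-0.12 ± 0.10). SIP1-1 Solyc10g078490.2 had 19.7, 19.2 and 17.8 CPM in JMJ6-OE and 16.1, 16.5 and 24.8 CPM in WT (-0.02 ± 0.18). The genotypes overlapped in each of these genes, and with standard errors of 0.10 to 0.18 a difference of 1 on the log2 scale would lie outside the error. The neighbouring row Solyc10g078495.1, described as SIP1-2-like, had 1.08, 0.535 and 0.222 CPM in JMJ6-OE and 0.676, 0.426 and 0.953 CPM in WT, and may share reads with SIP1-1.

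The 3 members whose symbol and description disagree have locus numbers close to each other. Solyc10g054810.2 and Solyc10g054840.2, also close by number, are described as X intrinsic proteins, a further plant subfamily. The class of the 3 members is therefore uncertain. Solyc10g054790.2 (symbol PIP1-2, described as TIP3-1) had 31, 89 and 13 counts in JMJ6-OE and 4, 0 and 2 counts in WT, or 0.961, 2.65 and 0.482 CPM against 0.135, 0 and 0.0515 CPM. This was the only member that rose, with a log2 fold change of 4.50 ± 0.99 (edgeR adjusted p = 0.013). It passed the filter only through the JMJ6-OE libraries, so a difference was a condition of its being tested. The call and the interval below are therefore no separate support for the rise. From the summed counts the level was 25.9-fold higher, with an exact 95% interval of 11.6 to 71.7 for counting error only. The call was lost without WT replicate 3 (adjusted p = 0.052), and even in JMJ6-OE the gene reached only 0.893 ± 0.731 FPKM. Solyc10g054820.2 had 13, 4 and 5 counts in JMJ6-OE and 5, 0 and 4 in WT, and Solyc10g054800.2 had 0 in all libraries.

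Summed over all members, aquaporin transcript was 1090, 683 and 544 FPKM in the JMJ6-OE libraries and 1352, 1223 and 1145 FPKM in the WT libraries. Each JMJ6-OE library was below each WT library, with JMJ6-OE replicate 1 the nearest to WT. As a share of a library's summed FPKM this was 0.120 ± 0.0451% in JMJ6-OE and 0.193 ± 0.0135% in WT. The FPKM values are not TMM-scaled, which places JMJ6-OE lower by a median of 0.19 on the log2 scale over well counted genes. In TMM-scaled CPM the sums were 1434, 980 and 832 in JMJ6-OE and 1707, 1480 and 1417 in WT, and JMJ6-OE replicate 1 then lay within the WT range.

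By class, the TIP sum was 154 ± 78.1 FPKM in JMJ6-OE and 341 ± 37.7 FPKM in WT, and the NIP sum 15.2 ± 1.54 FPKM in JMJ6-OE and 37.4 ± 5.22 FPKM in WT. The PIP1 sum was 98.9 ± 47.0 FPKM in JMJ6-OE and 209 ± 30.4 FPKM in WT. For these 3 sums every JMJ6-OE library was below every WT library, but the PIP1 sum turns round with the rows outside the rule. The NIP sum leaves out Solyc06g073600.3 (symbol NIP1-1), with 19.5 ± 0.703 FPKM in JMJ6-OE and 24.6 ± 1.41 FPKM in WT. That row was not called and alone exceeded the NIP sum in JMJ6-OE, so the NIP ratio would be nearer to even with it. The PIP2 sum was 454 ± 156 FPKM in JMJ6-OE and 594 ± 42.3 FPKM in WT, where JMJ6-OE replicate 1 (631 FPKM) lay within the WT range of 560 to 641 FPKM. The SIP sum was 48.8 ± 2.83 FPKM in JMJ6-OE and 58.8 ± 1.13 FPKM in WT, but 69.3 ± 2.26 and 72.9 ± 2.48 TMM-scaled CPM, in which the genotypes overlapped. No test was run on these sums.

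The make-up of the pool also differed between the genotypes. PIP2-1 Solyc11g069430.2 held 54.1, 51.3 and 55.0% of the summed FPKM of the members in JMJ6-OE and 44.5, 44.0 and 45.6% in WT. TIP1-1 held 18.8 ± 3.38% in JMJ6-OE and 26.9 ± 1.02% in WT (mean ± SD, n = 3 each), and PIP1-3 Solyc12g056220.2 held 12.2, 9.91 and 10.6% in JMJ6-OE and 16.7, 15.6 and 15.8% in WT. These shares did not overlap between genotypes, with that of PIP2-1 higher and the others lower in JMJ6-OE. The direction for PIP2-1 depends on the rows summed: over all 47 rows, with those outside the rule, it held 26.3, 18.7 and 16.8% in JMJ6-OE and 27.9, 28.9 and 28.5% in WT. The shares of TIP1-1 and PIP1-3 Solyc12g056220.2 were lower in JMJ6-OE over either set of rows. The shares come from the same values as the levels and were not tested.

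**Figure D3:**
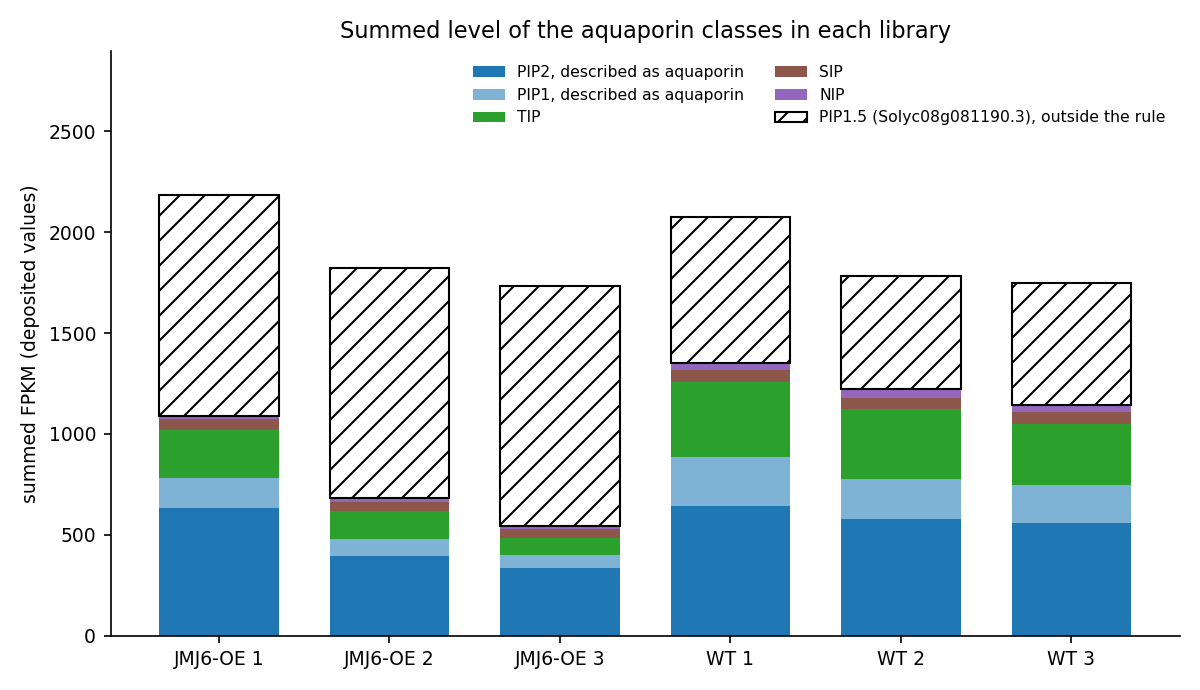
Bars give the summed FPKM (deposited values) in each of the 3 JMJ6-OE and 3 WT libraries, with solid colours for the members by class and hatching for PIP1.5, which the rule leaves out. The 3 members with disagreeing labels, at most 1.79 FPKM together, are not drawn. The solid part is lower in every JMJ6-OE library, while the whole bar overlaps between genotypes.

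The rows outside the rule changed this picture. Solyc08g081190.3 (symbol PIP1-3), described as plasma membrane intrinsic protein 1.5, had a higher mean FPKM than any member. It averaged 1142 ± 47.9 FPKM in JMJ6-OE and 631 ± 85.9 FPKM in WT. In WT this overlapped the 554 ± 42.0 FPKM of PIP2-1 Solyc11g069430.2, although Solyc08g081190.3 had the higher FPKM within each WT library. In CPM PIP2-1 Solyc11g069430.2 was higher there (811, 687 and 680). Solyc08g081190.3 had 964, 1086 and 1188 CPM in JMJ6-OE and 619, 453 and 496 CPM in WT, with no overlap. It rose 2.06-fold (log2 fold change 1.05 ± 0.16, edgeR adjusted p = 0.0029), also with each library left out in turn. The RefSeq table lists TRAMP, the tomato ripening-associated membrane protein, as another name of its gene PIP1-5, which matches this row by the name in its description and by chromosome (8). The chromosome alone does not single it out, since the scarce member Solyc08g008050.3, described as pTOM75, has the same symbol and chromosome number. That member went the other way, lower in every JMJ6-OE library without passing the test. Which of these rows is the TRAMP gene was not settled. The symbol of Solyc08g081190.3 is PIP1-3, however, and the symbol PIP1-5 stands on Solyc01g094690.3.

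Solyc01g094690.3 (PIP1-5), described as an Aqp2 protein, had 22.7, 27.6 and 26.1 CPM in JMJ6-OE and 11.9, 12.7 and 8.08 CPM in WT (log2 fold change 1.22 ± 0.18, edgeR adjusted p = 0.0028). Thus 2 PIP1-type rows rose here, whereas PIP1-3 Solyc12g056220.2 fell. With these 2 rows the PIP1 sum was 1264, 1245 and 1269 FPKM in JMJ6-OE and 981, 769 and 797 FPKM in WT, higher in every JMJ6-OE library, the opposite of the PIP1 members alone. The PIP sum was then 1713 ± 158 FPKM in JMJ6-OE and 1443 ± 155 FPKM in WT, against 552 ± 203 FPKM in JMJ6-OE and 803 ± 72.6 FPKM in WT for the members alone. With all 10 outside rows the family's sum was 2240, 1872 and 1778 FPKM in JMJ6-OE and 2156, 1866 and 1835 FPKM in WT. The lower sum of the members was therefore not seen over the wider family, in which the genotypes overlapped.

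Other outside rows fell. TIP2-1 Solyc03g120475.1, described as tonoplast intrinsic protein 2.2, had 4.62, 3.36 and 3.26 CPM in JMJ6-OE and 15.9, 17.0 and 30.6 CPM in WT (log2 fold change -2.49 ± 0.30, edgeR adjusted p = 0.0014). An X intrinsic protein 2, of a further plant subfamily (Solyc10g054840.2, symbol PIP1-6), had 7.19, 5.91 and 4.89 CPM in JMJ6-OE and 24.6, 30.8 and 20.1 CPM in WT (-2.07 ± 0.21, edgeR adjusted p = 6.1e-04). Its locus number is close to that of Solyc10g054790.2, which rose. Both falls were called whichever library was left out.

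The row described as Lsi-1 (NIP2-1 Solyc03g013340.3), named after the silicon channel of rice, had 10.1, 1.46 and 1.19 CPM in JMJ6-OE and 8.76, 5.59 and 7.93 CPM in WT. JMJ6-OE replicate 1 was the highest of all libraries and the other 2 were the lowest. The log2 fold change was -0.80 ± 0.82 (edgeR adjusted p = 0.49), and -2.48 without JMJ6-OE replicate 1 (adjusted p = 9.3e-04). The NIP1-1 row Solyc06g073600.3, described only as uncharacterized, was not called (-0.14 ± 0.10), and the remaining 4 rows had 0 counts in all libraries.

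JMJ6-OE replicate 1 was the nearest of its group to WT, here the lowest, for the ripening genes RIN and PSY1 too. It had 293 CPM for RIN, against 512 and 582 CPM in replicates 2 and 3, and 3622 CPM for PSY1, against 5545 and 6469 CPM. For PG2A replicate 1 was not the lowest, with 4063 CPM against 5102 and 3869 CPM. The part of this in the aquaporin values was not tested. Related gene lists were drawn up by words of the description, and their counts stand beside 17.5% higher and 16.8% lower over all tested genes. Of 32 tested rows of the tonoplast proton pumps, which energise the vacuole membrane, 18 rose and 3 fell. By adjusted p, VATE Solyc08g081910.3 led those that rose (log2 fold change 0.95 ± 0.11, edgeR adjusted p = 9.8e-04). Among those that fell were the scarce row MSTRG.4151 (-1.58 ± 0.37, edgeR adjusted p = 0.015) and VHA-B2 Solyc10g055670.2 (-0.35 ± 0.08, edgeR adjusted p = 0.017). Each of these falls was called in 4 of 6 fits with 1 library left out. Without WT replicate 3 there were 10 higher pumps, without WT replicate 2 there was 1 lower, and without JMJ6-OE replicate 2 there were 0 lower. Of 3 tested plasma membrane proton pumps 1 fell, LHA1 Solyc03g113405.1 (-0.56 ± 0.11, edgeR adjusted p = 0.0084).

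Potassium is a main osmotic solute of fruit cells. Of 33 tested potassium channel and transporter rows 6 rose, near the share of 17.5% over all tested genes, and 9 fell, against 16.8%. The higher count was 2 without JMJ6-OE replicate 3, and 3 without JMJ6-OE replicate 2, WT replicate 2 or WT replicate 3. A pair of genes with the symbol SKOR, a potassium export channel in Arabidopsis, moved in opposite directions. Solyc05g051220.3 had a log2 fold change of 2.78 ± 0.47 and Solyc03g097940.3 one of -1.29 ± 0.17 (edgeR adjusted p = 0.0045 and 0.0019). The tonoplast dicarboxylate transporter TDT Solyc11g012360.2 rose by 1.43 ± 0.27 (edgeR adjusted p = 0.0065). Of 17 tested expansins, which loosen cell walls, 1 rose and 2 fell, with 2 higher without WT replicate 1 and 4 lower without JMJ6-OE replicate 1. EXPA7 Solyc06g051800.3 rose by 3.77 ± 0.40 (edgeR adjusted p = 0.0012), and EXLA1 Solyc01g112000.3 and EXPA3 Solyc09g010860.3 fell by 2.30 ± 0.25 and 2.03 ± 0.26 (edgeR adjusted p = 0.0011 and 0.0018).

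Vascular and surface markers were checked because aquaporins are abundant in those tissues. Their counts also stand beside 17.5% higher and 16.8% lower over all tested genes. Summed xylem markers stood at 25.4 to 32.6 CPM in JMJ6-OE and 24.9 to 27.0 CPM in WT, with none of 6 tested rows called and 16 of 30 rows at 0 in all libraries. Summed phloem markers stood at 68.6 to 89.6 CPM in JMJ6-OE and 56.6 to 69.3 CPM in WT, with 5 of 11 tested rows higher and 3 lower. Summed epidermis and cuticle markers stood at 820 to 1547 CPM in JMJ6-OE and 171 to 308 CPM in WT, with 4 of 11 tested rows higher and 2 lower. CER1 Solyc01g088400.3, of wax synthesis, alone had 616 to 1289 CPM in JMJ6-OE and 13.9 to 73.7 CPM in WT. The 2 lower rows are also described as ECERIFERUM 1. Solyc12g100270.2 had 0.186 to 0.816 CPM in JMJ6-OE and 4.23 to 52.8 CPM in WT. Solyc12g087980.2 had 2.67 to 5.53 CPM in JMJ6-OE and 6.49 to 18.1 CPM in WT. With each library left out in turn, these falls were called in 3 and 1 of 6 fits. The part of vascular and surface tissues in the aquaporin values was not tested.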

How the data were processed

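RNA of tomato pericarp was read by Illumina sequencing, per the labels, in 3 JMJ6-OE and 3 WT libraries, assigned by sample title. The submitters' processing notes name HISAT2. Its version, the counter, build, annotation and strand setting are not given in the sources used. Per the file headers, the authors deposited raw counts and FPKM per gene and library, mean FPKM per genotype, and their own comparison. On all 36224 rows the deposited log2 fold is that of the deposited mean FPKM (within 0.001). No source used here names the test behind the authors' deposited p-values. At a false discovery rate under 0.05 the authors' deposited table lists 6 members as lower and 1 as higher, among them all 6 called here plus TIP1-1 Solyc06g074820.3.

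The deposited counts were filtered (filterByExpr, minimum count 10, 20143 rows kept), TMM-scaled and tested, JMJ6-OE over WT with genotype as the only term, in edgeR 4.0.16 (R 4.3.3; quasi-likelihood, robust). P-values were Benjamini-Hochberg adjusted over all tested genes. Standard errors were taken as the size of the log2 fold change divided by the square root of F. A floor of 3 counts is 0.0822 to 0.105 CPM. Alternatives used DESeq2 1.42.0, limma-voom (limma 3.58.1), scaling by RLE or the upper quartile, 2 other filters, a replicate block, or 5 of the 6 libraries. The script was tested on simulated data. Replicates differed by 19.1 to 73.6 times the sampling noise (chi-square per degree of freedom), so none is a copy.

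Members were the rows whose description holds "aquaporin". Per-library values were due for called members and those with a mean of at least 10 CPM, and up to 2 called genes per direction of each related list were due to be named. From the marker words, CD1 was matched only as a whole word, since it otherwise also took unrelated RCD1 proteins. The 2 rows described as tonoplast intrinsic proteins were left out of the tonoplast carriers. The members and lists were chosen with earlier results of these data known, and the rows outside the rule after their values were seen. Figures were drawn with matplotlib 3.10.9.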

Additional observations from a re-analysis of the deposited data

How the results depend on the processing

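Over all tested genes, leaving out 1 library gave 2027 to 4169 higher and 2046 to 3962 lower genes, the fewest in both directions without JMJ6-OE replicate 2; without WT replicate 2, 2296 were higher. Of the aquaporins, 0 to 2 were higher (0 without WT replicate 3, 2 without JMJ6-OE replicate 1 or 3) and 2 to 6 lower when 1 library was left out. The 2 lower calls left without JMJ6-OE replicate 2 or WT replicate 2 were NIP3-1 Solyc08g013730.3 and PIP2-1 Solyc05g055990.3, and without JMJ6-OE replicate 3 there were 3. Of these, PIP2-1 Solyc05g055990.3 was tested only through the WT libraries. DESeq2 called 2 higher, and a filter of 1 CPM in 3 libraries called 0, since it removes Solyc10g054790.2. Leaving out 1 library gave 10 to 18 higher (fewest without WT replicate 3) and 0 to 3 lower tonoplast proton pumps (0 without JMJ6-OE replicate 2, 1 without WT replicate 2). It gave 2 to 6 higher potassium genes (2 without JMJ6-OE replicate 3, and 3 without JMJ6-OE replicate 2, WT replicate 2 or WT replicate 3), and 1 to 2 higher (2 without WT replicate 1) and 2 to 4 lower expansins (4 without JMJ6-OE replicate 1); limma-voom called 3 expansins higher. The log2 ratio of summed FPKM was -1.30 for NIPs and -0.74 without NIP3-1, and -0.27 for SIPs and -0.07 in TMM-scaled CPM. The PIP and TIP ratios (-0.54 and -1.14) ranged from -0.88 to -0.35 and from -1.60 to -0.85 with 1 library left out.

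Same-numbered libraries deviated together with correlations of 0.0939, 0.0777 and -0.0822, so the numbers were not taken as pairs. With the replicate block 1 aquaporin was higher and 5 lower, with TIP1-1 Solyc06g074820.3 gained (adjusted p = 0.014) and PIP2-7 Solyc01g111660.3 lost (0.064). Members near 0, none called, changed sign in some fits. For SIP1-1 Solyc10g078490.2 the log2 fold change was 0.0024 with limma-voom, 0.0094 with the block and -0.16 to 0.17 with 1 library left out. For NIP1-1 Solyc03g005980.3 it was -0.022 with upper-quartile scaling, -0.036 with limma-voom and -0.57 to 0.41 with 1 library left out. With 1 library left out it was -0.19 to 0.016 for SIP1-2 Solyc12g019690.2, -0.22 to 0.35 for TIP2-1 Solyc12g044330.2 and -0.82 to 0.24 for Solyc10g078495.1. The cause of these changes was not tested.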
